A study of Mus musculus with 4 samples.

Results

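The regions described here are the ChIP-seq peaks whose summit lay in no protein-coding gene. There were 375 such peaks of 722 in the deposited list, or 51.9% (Wilson 95% interval 48.3 to 55.6%). The share of all bases that lies outside coding genes is not given here, so this share has no background beside it. The peaks were chosen by position alone, so their scores and heights played no part in the choice. The chromatin came from CD11b-bead-isolated cortical microglia of C57BL/6 mice given intraperitoneal lipopolysaccharide (LPS), a bacterial product that triggers inflammation, for 4 days in a row. Of the 4 libraries, 2 were ChIP libraries made with the AceGAPDH antibody and 2 were of input chromatin, and every mouse behind them was LPS-treated. No untreated group was analysed here. A peak list holds no expression values, so the microglial label could not be checked against marker genes.

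GAPDH (glyceraldehyde-3-phosphate dehydrogenase) is a glycolytic enzyme that can also enter the nucleus under stress, where it has been described in complexes with acetyltransferases and other proteins. The series set out to find where on the genome nuclear GAPDH sits. Sequence outside coding genes includes promoter-flanking DNA and enhancers, genes for long non-coding RNAs and small RNAs, and repeats such as satellite DNA. When a genome assembly holds fewer copies of a repeat than the animal does, reads from all copies pile up on the few assembled ones, which is why some repeat loci show high signal in many sequencing experiments.

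The deposited list is 1 call with no value per library, and the sources used here do not say which libraries entered it. Each peak has the authors' score, used only to rank and describe peaks, and a height, the authors' pileup at its summit. Heights have exact Poisson 95% intervals and shares have Wilson 95% intervals. Both cover counting error only, and depth per library is unknown. The heights are those of called peaks, and their intervals take no account of that selection or of the shared maximum described below. Peaks are not replicates, so no test was run between sets of peaks and no value has a replicate check.

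Of the 375 peaks, 4 overlapped a start window in the RefSeq promoter table (GRCm38.p6, the assembly behind mm10), each at a listed start of a long non-coding RNA gene. No coding gene's window in that table was reached. The table gave no strand for the nearest coding gene of 95 of the 375 peaks, including 7 of the 22 within 1 kb. Overlap with the starts of those genes may thus be undercounted. The peaks nearest to coding genes are described below, with distances to the table's starts where it holds them. A window runs from 250 bases before a start to 50 after it. These sequences are shown because they are the DNA under the peaks for which the sources used here hold sequence. They are printed 5′ to 3′ on the strand of the RNA gene, and capitals mark the bases that the peak covers. The first 2 genes hold the peaks of high score, and the last 2 hold peaks of low score.
Gm40237 (chr4:118547156-118547455, + strand): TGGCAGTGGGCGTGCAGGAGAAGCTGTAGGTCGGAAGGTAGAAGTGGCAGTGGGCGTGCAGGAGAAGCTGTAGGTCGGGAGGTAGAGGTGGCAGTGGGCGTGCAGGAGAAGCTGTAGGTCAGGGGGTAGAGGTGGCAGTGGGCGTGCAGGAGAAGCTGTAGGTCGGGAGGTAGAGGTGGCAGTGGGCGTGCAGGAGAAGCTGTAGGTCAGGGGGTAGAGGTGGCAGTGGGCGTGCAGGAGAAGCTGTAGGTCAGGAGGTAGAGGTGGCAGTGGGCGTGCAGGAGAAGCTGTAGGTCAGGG
2310010J17Rik (chr7:90129425-90129724, - strand): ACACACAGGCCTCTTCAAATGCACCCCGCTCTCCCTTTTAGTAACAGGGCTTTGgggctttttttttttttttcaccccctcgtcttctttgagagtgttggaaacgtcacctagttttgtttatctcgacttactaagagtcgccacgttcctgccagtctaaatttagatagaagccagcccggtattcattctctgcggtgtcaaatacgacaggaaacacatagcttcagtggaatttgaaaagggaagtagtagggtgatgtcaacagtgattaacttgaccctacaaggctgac
Gm39307 (chr9:22259852-22260151, + strand): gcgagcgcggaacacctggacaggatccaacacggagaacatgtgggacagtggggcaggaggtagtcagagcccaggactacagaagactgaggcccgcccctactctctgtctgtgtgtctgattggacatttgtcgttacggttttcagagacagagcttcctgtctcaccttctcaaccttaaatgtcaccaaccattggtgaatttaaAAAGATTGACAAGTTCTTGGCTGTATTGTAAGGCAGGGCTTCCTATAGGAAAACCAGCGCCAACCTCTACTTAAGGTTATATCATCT
Gm29478 (chr9:91404100-91404399, + strand): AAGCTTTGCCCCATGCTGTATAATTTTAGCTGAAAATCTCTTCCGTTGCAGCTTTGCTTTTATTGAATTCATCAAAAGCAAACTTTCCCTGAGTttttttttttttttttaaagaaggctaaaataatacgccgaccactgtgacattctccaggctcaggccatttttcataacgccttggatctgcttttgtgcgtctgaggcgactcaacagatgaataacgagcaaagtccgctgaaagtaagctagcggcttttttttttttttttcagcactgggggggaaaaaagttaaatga

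The part of the Gm40237 peak in the window shown lay on a tandem repeat. That window matched itself at 96.1% of bases when shifted by 44 bases. From its first base, 6 whole copies of a 44-base unit followed one another. Copies 2 to 6 had 40 to 42 of 44 bases in common with the first. Of all 32851 start windows in the table, 18 (0.0548%) reached a match of 80% at any shift from 10 to 100 bases, where the median of the best match was 33.8%. The peak itself ran on past the window, from 118547056 to 118548794 on chromosome 4, and scored 247.59 at a height of 72 (Poisson interval 56.3 to 90.7). The nearest coding gene, Tmem125, lay 3022 bp away. The peak was 1739 bp long, and the window shown covers 17.3% of it. The peak also shared 133 bases with the window of another listed start of this gene (118546889 to 118547188). The best match of that window was 42.7%. The summit lay 536 bases past the start shown, outside the window, so its own sequence is not described here.

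The 2310010J17Rik peak lay between the start shown and Picalm, which encodes a clathrin assembly protein and is known as an Alzheimer risk gene. Its summit was 294 bases before that start of 2310010J17Rik (within the gene's annotated span) and 424 bp from Picalm on its start side (445 bp before the start in the table), scoring 153.45 at a height of 13. This was the highest score among the 22 peaks within 1 kb of a coding gene. The window had 44.7% G and C, below the median of 52.7% over all windows (quartiles 45.7 and 61.7%), and 9 CG dinucleotides against a median of 7.

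The Gm39307 summit lay 45 bases after the start of that RNA gene and 252 bp from Zfp599, a zinc finger gene, scoring 56.73 at a height of 8. The Gm29478 summit lay 227 bases before the start shown but within the gene's annotated span (RefSeq lists further starts in the next few bases). It was 14772 bp from Zic4, a zinc finger transcription factor gene, scoring 53.66 at a height of 7. These 2 peaks were ordinary in score, near the median of 57.12 for all peaks outside coding genes. Of 4 motifs searched on both strands, GGGCGG and CCAAT occurred in the Gm39307 window and none in the windows of the other 3 genes. GGGCGG was in 35.7% of all start windows, CCAAT in 37.4%, TATAAA in 13.6% and CACGTG in 7.15%, and a match is only a description of the letters.

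Most peaks outside coding genes were short and shallow. Their median score was 57.12 (quartiles 53.66 and 64.11), their median height 8 (quartiles 7 and 9) and their median length 158 bp (quartiles 145 and 179 bp). Peaks inside coding genes had nearly the same middle, with a median score of 56.54, a height of 8 and a length of 164 bp. A score under 60, close to the lowest score of 50.03 in the whole list, was found in 60.5% of the peaks outside and 65.7% of those inside.

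The sets differed most at their highest values. A score of at least 100 was reached by 32 peaks outside coding genes, 8.53% (interval 6.11 to 11.8%), where 6.65% of all peaks and 4.61% of those inside (2.86 to 7.36%) reached it. A height of at least 20 was found in 24 peaks outside, 6.40% (4.34 to 9.35%), against 4.85% of all peaks and 3.17% of those inside (1.78 to 5.59%). The intervals of the outside and inside shares overlap for both measures. Scores of at least 200 were found in 16 of 375 peaks outside coding genes, 1 of 347 inside and 17 of all 722. Of the 16 outside, 4 lay at the repeat loci listed below. The inside maximum was 205.41 where the outside maximum was 1479.61. Among peaks with a height under 20, the share with a score of at least 100 was 3.13% outside (11 of 351, interval 1.76 to 5.52%) and 3.87% inside (13 of 336, 2.27 to 6.51%), so the order of the shares turned and the intervals overlapped.

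**Figure D1:**
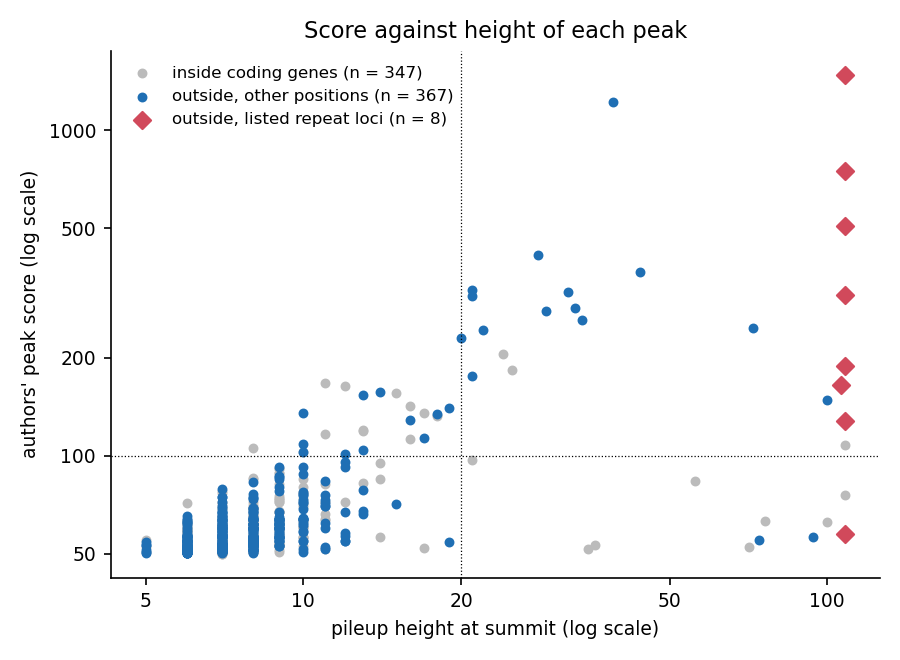
Authors' score (vertical, log scale) against pileup height at the summit (horizontal, log scale) for each of the 722 peaks, with dotted lines at a score of 100 and a height of 20. Of the peaks outside coding genes, 21 lie beyond both lines, and the 8 at listed repeat loci have heights of 106 to 108 with scores from 57.46 to 1479.61.

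Heights outside coding genes were mostly low, and the limits of the classes given here were set with the heights known. Heights of 5 to 7 held 43.5% of the peaks and heights of 8 to 10 held 42.1%. Above these, 30 peaks had 11 to 19, 12 had 20 to 44, none had 45 to 71, and 12 had 72 to 108. Peaks inside coding genes did have heights from 45 to 71, at 56 in Sfi1 and 71 in Aida. Height and score went together among peaks under a height of 20 (Spearman's rho 0.50 across 351 peaks) and did not among the 24 higher ones (rho -0.062). Of these 24, 7 were tied at a height of 108, so their heights could not rank them. Both rho values are correlations across peaks of 1 call, given as a description.

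The highest heights were tied. The value 108 was the maximum of the list and occurred in 9 peaks, 7 of them outside coding genes. The scores of these 7 spread widely, from 57.46 to 1479.61. Whether 108 is an upper limit of the deposited pileup was not tested, so equal heights here need not mean equal signal. Low scores at high pileups were also found at a 693 bp peak on chromosome 12 (74803820 to 74804512, height 94, score 56.40), 92787 bp from Kcnh5, a potassium channel gene, and at an 853 bp peak on chromosome 18 (3005174 to 3006026, height 74, score 55.00). The summit of the latter lay 5843 bp past position 3000000, the point below which gene rows were left out. With the X peak described below these were the 3 peaks outside coding genes with a height of at least 20 and a score under 100, of which there were 8 inside.

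The pileups were set against 13 loci listed from general knowledge of mm10 as places of recurrent high or repeat signal, with approximate windows of 10 kb to 110 kb. The list is not a published exclusion list, and some of its loci were already known as high peaks of these data when it was written, so the overlap is no independent evidence. Of these loci, 5 held peaks outside coding genes, 8 peaks in all (2.13%, interval 1.08 to 4.15%), which together covered 8138 bp or 11.1% of the bases under the 375 peaks. All 8 had heights of 106 or 108, and they were 8 of the 9 peaks outside coding genes with a height of at least 100. Inside coding genes, 5 further peaks lay at such loci.

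The satellite copy within the arm of chromosome 2 held 4 peaks between 98662193 and 98667344, more than 1 Mb from the nearest coding gene, Lrrc4c, which encodes a synaptic adhesion protein. Their scores were 506.32, 164.60, 128.09 and 751.71 in order of position, and their heights were 108, 106, 108 and 108. The gaps between them were 543 to 977 bp. A wide range of scores thus stood side by side within 5152 bp. The heights were at or near the maximum of the list, so they could not rank these 4 peaks.

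The other 4 loci held 1 peak each. On chromosome 14 (19415682 to 19419712) the 4031 bp peak had the highest score of the list, 1479.61, and lay 116343 bp from the predicted gene Gm2244. On chromosome 9 (35305129 to 35305678) the summit lay in Gm33838, a long non-coding RNA gene, with a score of 311.26, 29443 bp from Rpusd4, a pseudouridine synthase family gene. On chromosome 12 (3109784 to 3110216) the score was 188.65, at 137463 bp from Rab10, a small GTPase gene. On X (143482993 to 143483150) the score was 57.46 at a height of 108, at 35310 bp from Pak3, a kinase gene. The scores of these 4 peaks thus differed widely, while all 4 had the maximum height of the list.

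The remaining peak with a height of at least 100 lay outside the listed loci. It was 1207 bp long (chromosome 15, 75085939 to 75087145) with a height of 100 (interval 81.4 to 122) and a score of 148.67, and lay 21390 bp from Ly6c2, which encodes a surface protein of monocytes and other blood cells. With the peaks at listed loci left out, a choice made after the data were seen, 6.81% of the remaining 367 peaks had a score of at least 100 and 4.36% a height of at least 20. With the 5 inside peaks at such loci left out too, the inside shares were 4.39% (interval 2.68 to 7.11%) and 1.75% (0.806 to 3.77%). The outside intervals, 4.66 to 9.86% for score and 2.70 to 6.96% for height, overlap these. The part of repeat signal in the scores was not tested.

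High scores at moderate heights formed another group. The second highest score of the list, 1220.50, was that of a 494 bp peak of height 39 on chromosome 17 (4626160 to 4626653). The interval of its height was 27.7 to 53.3. Its summit was in Gm34259, a long non-coding RNA gene, 367965 bp from Arid1b, a chromatin remodelling gene. Its score exceeded those of all 4 chromosome 2 satellite peaks, at less than their heights.

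After the peaks already named, the next scores also came with heights under 45. The peak on chromosome 14 at 107075295 to 107075372 scored 414.77 at a height of 28, at 939471 bp from Trim52. The peak on chromosome 1 at 12644675 to 12644952 scored 366.98 at a height of 44, at 47392 bp from Sulf1, which encodes a heparan sulfate sulfatase. The peak on chromosome 11 at 25100055 to 25100211 scored 323.20 at a height of 21, at 926605 bp from Bcl11a, a transcription factor gene. None of these 3 summits lay in an annotated gene.

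Others of the 20 highest scores outside coding genes lay beside genes of varied kinds. A score of 318.99 at a height of 32 was found 14749 bp from Pla2r1, a phospholipase receptor gene. A score of 277.71 at a height of 29 was found 8092 bp from Olfr854, an olfactory receptor gene. A score of 261.48 at a height of 34 lay in the long non-coding RNA gene D130079A08Rik, 124684 bp from Pou4f1, a transcription factor gene of sensory neurons. The rest were 285.23 near Gm8882, 242.83 near Gulp1, 230.17 near Cldn34c1 on X and 176.00 near Nxph1. Heights of these last 4 were 20 to 33.

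Short peaks carried high scores. Of 8 peaks outside coding genes under 100 bp long (2.13%, against 1.52% of all peaks), 7 had a score of at least 100 (87.5%, interval 52.9 to 97.8%). Among the 367 longer ones the share was 6.81% (4.66 to 9.86%). Length, score and height come from the same call, and the limit of 100 bp was set after the data were seen.

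These 8 peaks were 64 to 92 bp long with heights from 10 to 28. In order of score they were the chromosome 14 peak near Trim52 (78 bp), the 7SL RNA gene Rn7s2 (74 bp), a peak near Gulp1 on chromosome 1 (92 bp, height 22), one near Cldn34c1 on X (84 bp, height 20), one near Malt1 (81 bp, height 14), one near Cdh26 on chromosome 2 (64 bp, score 134.95, height 10), the 7SL RNA gene Rn7s1 (74 bp) and one near Bcl2l11 on chromosome 2 (91 bp, score 58.33, height 10). Malt1 encodes the paracaspase of NF-kB signalling and Bcl2l11 the pro-apoptotic protein BIM. Only the peak near Bcl2l11 had a score under 100. Inside coding genes 3 peaks were under 100 bp, with scores of 51.69 to 120.47, and 2 of them (66.7%, interval 20.8 to 93.9%) scored at least 100.

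**Figure D2:**
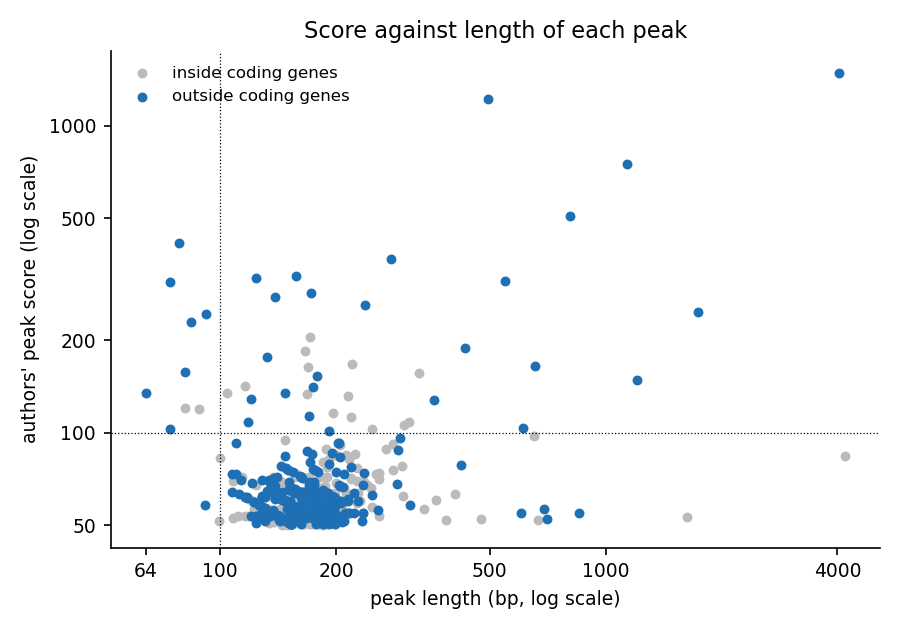
Authors' score (vertical, log scale) against peak length in bp (horizontal, log scale) for each peak, with dotted lines at 100 on each axis. Among peaks under 100 bp long, 7 outside coding genes and 2 inside have scores of at least 100, from 102.83 to 414.77 outside and up to 120.47 inside.

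Peaks lay at all distances from coding genes. The median distance from summit to the nearest coding gene was 42348 bp (quartiles 11550 and 175554 bp), from 48 bp at Pla2g4e to 2160986 bp near Pcdh9. Within 1 kb lay 22 peaks (5.87%, interval 3.91 to 8.72%), at 1 to 5 kb 38 (10.1%), at 5 to 50 kb 141 (37.6%), at 50 to 500 kb 131 (34.9%) and farther 43 (11.5%). Of all 1630994485 bases outside coding genes, 2.18% lie within 1 kb of one, 6.99% at 1 to 5 kb, 30.7% at 5 to 50 kb, 46.7% at 50 to 500 kb and 13.4% farther. The shares of peaks were thus above the shares of bases in the 3 classes up to 50 kb, and below in the class from 50 to 500 kb, with intervals that do not contain the share of bases. The base count includes assembly gaps and sequence to which reads cannot be placed, so it is a coarse reference.

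**Figure D3:**
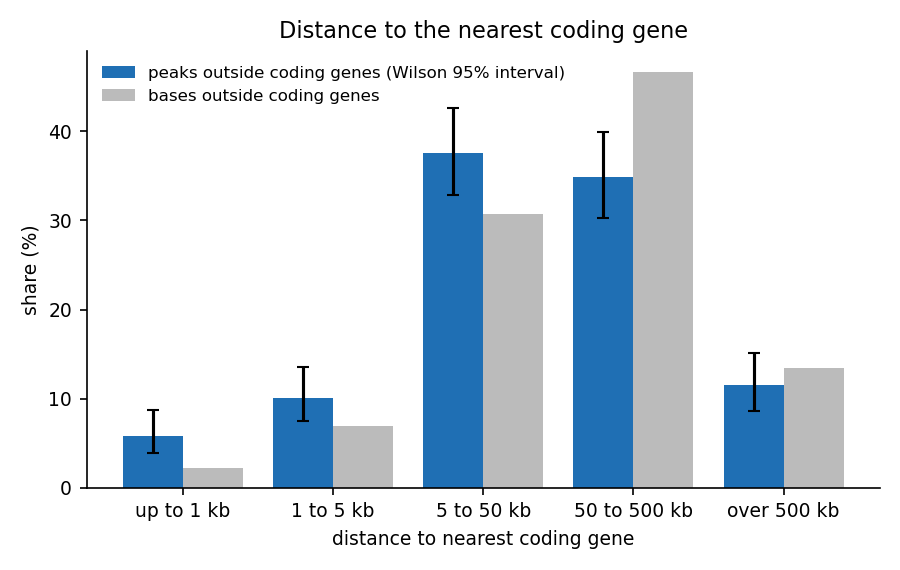
Share in % (vertical) of the 375 peaks outside coding genes and of all bases outside coding genes, by distance to the nearest coding gene (horizontal). Bars of peaks, with Wilson 95% intervals, stand above those of bases up to 50 kb and below them from 50 to 500 kb.

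Score hardly changed with distance. The median score was 56.52 within 1 kb, 57.04 at 1 to 5 kb, 57.12 at 5 to 50 kb, 58.33 at 50 to 500 kb and 56.54 farther away. Scores of at least 100 made up 16.3% of the peaks over 500 kb away (7 of 43, interval 8.12 to 30%), with 4 of these 7 in the chromosome 2 satellite run, and 5.67% at 5 to 50 kb (2.90 to 10.8%). The 4 peaks more than 1500 kb away all lay on chromosome 14, beside the protocadherin genes Pcdh17 and Pcdh9, with scores of 53.02 to 60.04 and heights of 6 to 8.

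Near coding genes the peaks lay mostly on the start side. The strand of the nearest gene was known from the promoter table for 42 of the 60 peaks within 5 kb of a coding gene. Distances were measured to the outer ends of the annotated gene. Of these peaks, 35 lay past the start-side end and 7 past the other end, a start-side share of 83.3% (interval 69.4 to 91.7%). Of the bases within 5 kb with a stranded nearest gene, 51.7% lie on the start side. Over 5 kb away the share of peaks was 55.0% (131 of 238, interval 48.7 to 61.2%). The start-side share was not among the planned results. Within 5 kb it was 77.3% to 84.8% in 4 further selections of peaks, chosen after the data were seen. A start in the promoter table can lie inside the annotated gene: it was within 50 bp of the gene's outer end for 21 of the 35 peaks and farther in for 14, so that 31 of the 35 lay within 5 kb of a table start.

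**Figure D4:**
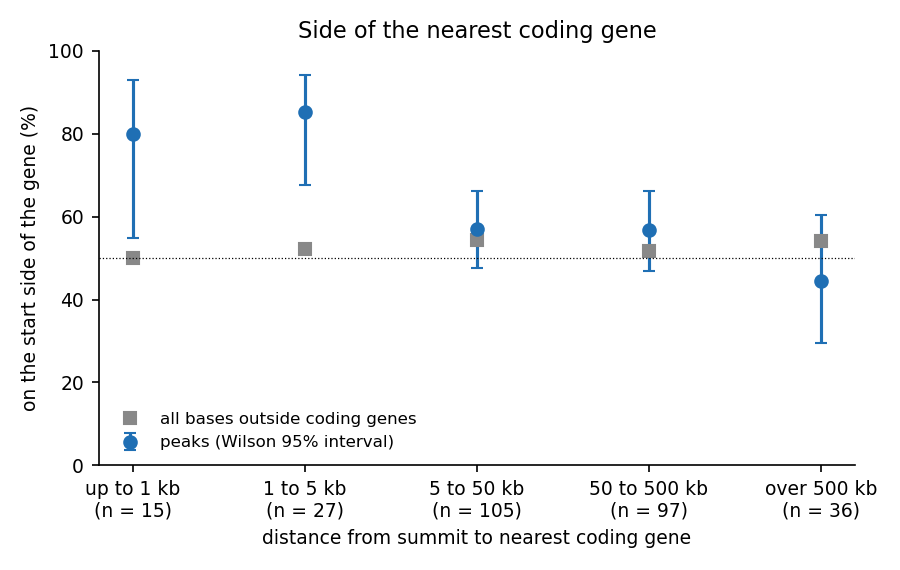
Share in % (vertical) of peaks that lie on the start side of the nearest coding gene, by distance class (horizontal, with the number of peaks whose gene has a known strand), beside the share of all bases outside coding genes. The peaks stand at 80% and 85.2% in the classes up to 5 kb, with Wilson 95% intervals above the 50% and 52.3% of bases, and the intervals contain the share of bases in the 3 farther classes.

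The 22 peaks within 1 kb had scores from 50.46 to 153.45 and heights from 5 to 13, and 15 of them scored under 60. Of all 22, 12 lay on the start side, 3 beyond the end and 7 beside a gene without a strand in the table. Led by Picalm and by the Rn7s1 peak beside the ribosomal protein gene Rps29, the highest scores continued with Atxn3, a deubiquitinase gene (79 bp from the outer end on the start side and 957 bp before the table's start, score 92.39, height 9), and Rusc1 (909 bp beyond the end, score 73.21, height 11). Pla2g4e, a phospholipase gene, had its summit 48 bp beyond the end (score 67.86, height 7), and Pdgfa, which encodes a platelet-derived growth factor chain, had one 782 bp from its outer end on the start side and 6630 bp before the table's start (score 64.52, height 10). Septin9, a cytoskeletal GTPase gene (638 bp before the start), followed with 62.65, Serpinb1a, a protease inhibitor gene, with 59.58, Lrfn5, a synaptic adhesion gene (200 bp from its outer end and 516 bp before the table's start), with 57.12, and Zfp398 (522 bp beyond the end) with 56.85.

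The edge of the rule ran through peaks of like values. The peaks at Atxn3 and Pla2g4e were the only 2 of the 375 with bases inside a coding gene. Just inside lay the summit in Tle4, a transcriptional corepressor gene, 34 bp within its nearer outer end (score 50.03, height 7). The summit in Cst3, the cystatin C gene, lay 135 bp within its nearer outer end (score 73.51, height 10). For these 2 genes the nearer end was taken without regard to strand.

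Of the 38 peaks at 1 to 5 kb, 3 scored at least 100. They were the peaks at Rn7s2 (4244 bp from Nemf, a gene of ribosome quality control), at Gm40237 (3022 bp from Tmem125) and at Malt1 (3434 bp), and the first 2 also had heights of at least 20.

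Of 169 genes in 9 lists (microglia identity, LPS and NF-kB response, interferon response, GAPDH partners and p53 pathway, glycolysis, and 4 other cell types of the cortex), 4 lay within 50 kb of a peak outside coding genes, or 2.37%. Of all 21779 coding genes 456 did, or 2.09%, so the listed genes were close to the background. The 4 genes were Picalm in the microglia list (30 genes), Malt1 in the LPS and NF-kB list (36 genes), Bax in the GAPDH and p53 list (21 genes) and Gja1, the connexin 43 gene, in the astrocyte list (9 genes). The Malt1 peak had a score of 157.55 at 3434 bp, the Bax peak 50.72 at 1360 bp, where Ftl1, a ferritin light chain gene, was nearer at 449 bp, and the Gja1 peak 50.54 at 13810 bp. None of the 17 interferon genes, 20 glycolysis genes, 11 oligodendrocyte genes, 16 neuron genes or 9 endothelial and mural genes had such a peak.

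Gene families with many members were counted among the nearest coding genes, beside their share of all coding genes, which takes no account of the sequence between genes. Olfactory receptor genes (names in Olfr) were nearest to 5 peaks, 1.33% (interval 0.571 to 3.08%), and make up 5.09% of coding genes. Vomeronasal receptor genes were nearest to 3 (0.800%, against 1.62% of coding genes), zinc finger genes named Zfp to 6 (1.60% against 1.84%), and protocadherin genes to 4 (1.07%, interval 0.416 to 2.71%, against 0.317%). The 4 protocadherin cases are the 4 peaks more than 1500 kb from Pcdh9 and Pcdh17, so they rest on 2 genes. No test was run.

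Non-coding genes held 62 of the 375 summits, 16.5% (interval 13.1 to 20.6%), and 313 lay in no annotated gene. Of all bases outside coding genes, 13% lie in a non-coding gene, just below that interval. With runs of peaks less than 10 kb apart counted once, the share of summits was 15.85% of 366. No excess is read from so small a difference. By type of the first gene listed, 55 summits lay in long non-coding RNA genes, 4 in pseudogenes, 2 in small cytoplasmic RNA genes and 1 in the immunoglobulin kappa locus. Scores hardly differed there, with a median of 57.17 against 57.12 for summits in no gene.

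A score of at least 100 was found in 7 of the 62 (11.3%, interval 5.58 to 21.5%), and in 25 of the 313 in no gene (7.99%, 5.47 to 11.5%). The 7 were in Gm34259, Gm33838, Rn7s2, D130079A08Rik, Gm40237, 2310010J17Rik and Rn7s1, all described here. Next came E230029C05Rik (score 96.05, height 12), 59359 bp from Eed, a subunit of the polycomb complex PRC2, and the pseudogene Gm5270 (score 92.65, height 12).

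Long non-coding RNA genes named for a coding partner also held summits, at low scores. Junos, beside the transcription factor gene Jun, scored 54.96 at a height of 6, with the summit 6097 bp from Jun. Otx2os1, beside the homeobox gene Otx2, had 61.82 and a height of 8, with the summit 107124 bp from Otx2. Cdrt4os1 had 56.49 and a height of 8. The kappa light chain locus had a summit at 69330065 on chromosome 6, scoring 69.18 at height 8.

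The 7SL RNA genes Rn7s1 and Rn7s2, which encode the RNA of the signal recognition particle, had peaks in mirrored places. Each gene is 299 bp long on chromosome 12, and each peak was 74 bp long and shared 73 bases with the gene. The Rn7s1 peak covered the lower end (69159294 to 69159367), with its summit 35 bp from that end, and the Rn7s2 peak the upper end (69361409 to 69361482), with its summit 36 bp from that end. The scores were 102.83 and 308.62, and the heights 10 (interval 4.80 to 18.4) and 21 (13 to 32.1), intervals that overlap. Near-identical copies exist, so the split of reads between them is uncertain.

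Other small RNA genes were looked for only where they were the non-coding gene nearest to a summit. Within 2 kb, besides 7SL, these were the tRNA gene n-TLaag6 at 430 bp (score 60.25, height 6), the snRNA gene Gm25609 at 874 bp (score 57.41, height 8) and the snoRNA gene LOC115488420 at 874 bp (score 61.89, height 8). A small RNA gene farther off than another non-coding gene was not counted. No peak outside coding genes lay within 10 kb of a microRNA hairpin, and the nearest, Mir331, was 13095 bp from a summit.

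Peaks outside coding genes formed 5 runs with gaps under 10 kb, holding 13 peaks, of which the chromosome 2 satellite run was the first. On chromosome 15, 1100001I12Rik, also a long non-coding RNA gene, held 3 peaks between 38643703 and 38646543, with gaps of 1169 and 1210 bp, scores of 54.03 to 54.83 and heights of 7, 12 and 8. Its nearest coding gene was Atp6v1c1, a subunit of the vacuolar proton pump. These 3 peaks differed from the satellite run in every value: their scores lay within 1 unit of one another and their heights were under 13.

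Each of the other 3 runs held 2 peaks. On chromosome 19 (29488150 to 29489396) they lay nearest to Pdcd1lg2, which encodes the immune checkpoint ligand PD-L2, with scores of 88.11 and 54.43 and heights of 10 and 5. On chromosome 6 (47763768 to 47773151) scores were 54.88 and 104.00 and heights 12 and 13, and the second lay 8602 bp from the Y RNA gene Rny3. On chromosome 8 (20502325 to 20507090) both lay in the long non-coding RNA gene Gm40467, with scores of 53.02 and 59.99 and heights of 8.

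The share of peaks outside coding genes varied between chromosomes. It was highest on Y (4 of 4), X (4 of 5), chromosome 12 (20 of 26, 76.9%, interval 57.9 to 89.0%) and chromosome 18 (18 of 25, 72%, 52.4 to 85.7%). It was lowest on chromosome 19 (5 of 19, 26.3%, 11.8 to 48.8%), chromosome 5 (12 of 36, 33.3%, 20.2 to 49.7%) and chromosome 17 (14 of 41, 34.1%, 21.6 to 49.5%). Many intervals overlap, and no test was run. The share of each chromosome's bases outside coding genes is not given here, so these shares have no background beside them.

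The sex chromosomes held 8 peaks outside coding genes. On X, besides the peak of height 108, they had scores of 230.17 (height 20, 272103 bp from Cldn34c1), 64.11 (height 7, 17349 bp from Btbd35f25) and 53.67 (height 8, 37079 bp from 6030498E09Rik). On Y they had scores of 51.25, 56.24, 73.21 and 56.54 and heights of 6, 7, 10 and 6, at 34655 to 209875 bp from predicted genes (Gm20865, Gm20855 and Gm21247). Only the 2 X peaks of height 108 and 20 stood above the usual range of heights.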

How the data were processed

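ChIP-seq was done on 2 AceGAPDH libraries and 2 input libraries. The submitters' processing notes name build mm10 and FastQC, Bowtie2 and MACS. Roles, versions and settings of these tools are not given in what was used here. The score per peak is the authors' deposited value on a scale that the file does not state, and the height is the authors' deposited signal (pileup) at the summit. Both lists were joined by peak name, and positions are 1-based.

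Gene positions came from RefSeq genes of GRCm38.p6: 49943 rows on 21 chromosomes, without 340 that start below 3 Mb on chromosomes other than Y. A peak was outside coding genes when its summit lay in none of 21779 coding genes. Strands and sequences came from the RefSeq promoter table (32851 windows), which gave a strand for the gene nearest to 280 of the 375 peaks. Shares of bases were counted from 3 Mb (on Y from the first gene) to the last gene or peak. Intervals are Wilson for shares, exact Poisson for heights and order-statistic for medians, at 95%. Annotation and intervals were tested on simulated data. Python 3.11.15 was used with scipy 1.17.1 for intervals, pandas 2.3.3 and numpy 2.4.6 for tables, and matplotlib 3.10.9 for plots.

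Members, lists and repeat loci were chosen with earlier results of these data known. Named were the 20 highest scores, the 10 highest pileups, all peaks on X and Y, the 10 highest scores within 1 kb of a coding gene, non-coding genes with a score of at least 100, small RNA genes, runs and listed genes within 50 kb, and others as stated. The alternatives changed the overlap rule, the gene rows, the score and height limits and the counting of runs. No peak was removed. Sequence of other peaks was not used here.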

Additional observations from a re-analysis of the deposited data

How the results depend on the processing

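The list is 1 call, so nothing here could be checked between libraries. No paired analysis was possible because the deposited lists hold no value per library. Of 53 recomputed values for 10 results under 9 alternatives, 48 stayed within the 95% interval of the reported value, or for the number of peaks at listed loci within 1.5 times of it, and 5 did not. With peaks of height 20 or more left out, the share with a score of at least 100 was 3.13% in place of 8.53%, and 0 peaks stood at listed repeat loci in place of 8, since all 8 exceed that height. With only peaks of at least the median score kept, the median height was 8.5 and the share with a height of at least 20 was 11.1%, in place of 8 and 6.40%. With runs counted once, 5 peaks stood at listed loci. The limits of height and score act on measures of the same call, so the first 4 shifts follow in part from their construction. Leaving out peaks at listed loci and the selections for the start-side share were chosen after seeing the data. The start-side share itself was not a planned result and is from 42 peaks. Most heights are 5 to 10, where a Poisson interval spans more than the difference between peaks.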
